A study of Mus musculus with 9 samples.

Results

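CTCF occupancy was compared between neural stem cells (NSCs) that carry an altered SMCHD1 protein and NSCs that carry none. Each merged CTCF peak has 1 pooled value in the MommeD43 point mutant (column MommeD43-GFP) and 1 in the Smchd1 null (column Smchd1_del), and the difference of these values, point mutant minus null, was taken for every peak on chromosomes 1 to 19. This gave 217130 peaks of the 225769 in the series, and the tagged control, to which both mutants are otherwise compared, played no part. All cells were primary female NSCs grown as an adherent layer from cortices of E14.5 embryos of strain C57Bl/6, and chromatin was precipitated with the CTCF antibody D31H2. The point mutant (genotype Smchd1 MommeD43-GFP/MommeD43-GFP, 3 libraries) carries the MommeD43 change, remade by Cas9 in zygotes, on an Smchd1 allele fused to GFP. The null (genotype Smchd1 del/del, 2 libraries) was made in culture from floxed cells with a Cre retrovirus and drug selection. The GFP tag, the retrovirus and the selection are therefore split between the groups in the same way as the protein, and their parts cannot be told apart.

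SMCHD1 is a non-canonical member of the SMC family, the proteins that fold and hold chromosomes, and it is needed to keep genes silent, both on the inactive X and in autosomal clusters such as Hox genes, protocadherins and imprinted domains. CTCF is a zinc finger protein that binds a long motif, blocks extrusion of chromatin loops by cohesin and so marks loop anchors and domain borders. A ChIP-seq peak of CTCF can be narrow and tall over a bound motif, or broad and low.

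Each deposited value is the authors' mean over libraries of log2 RPM (reads scaled to library size), counted over the whole peak and not divided by its length. Single libraries are not given, so no SD or p-value stands behind any difference, and none could be set against the spread between replicate lines. From the steps between low values, libraries held a geometric mean of 49.2 M reads in the point mutant and 49.98 M in the null, and a median autosomal peak held 35.2 and 34.9 reads per library. Errors given as ± are the standard error from counting reads alone, on the log2 scale. CTCF occupancy does not measure expression, so the label of the cells was not checked against their markers.

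The peaks that carry a CTCF motif and lay furthest apart show what was measured. The core CTCF motif is 12 bases long, with 4 positions that allow 2 bases each, and was searched on both strands of the GRCm38 sequence. The sequences are written on the strand of the motif, 5′ to 3′, with the core in capitals and 20 bases on either side. They show the motif match that each of these peaks holds. Whether CTCF was bound at the match, or the difference arose there, was not tested. The 5 motif peaks furthest below in the point mutant, taken from the peaks with at least the median level, held these cores:
Gm45844, chr7:7278486-7278537, minus strand: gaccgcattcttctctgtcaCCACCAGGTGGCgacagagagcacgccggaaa
Cntnap2, chr6:45323677-45323728, plus strand: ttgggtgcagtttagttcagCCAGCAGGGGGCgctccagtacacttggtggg
Gm9509, chr15:37172354-37172405, plus strand: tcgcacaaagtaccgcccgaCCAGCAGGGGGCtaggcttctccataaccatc
Tmprss15, chr16:78969473-78969524, plus strand: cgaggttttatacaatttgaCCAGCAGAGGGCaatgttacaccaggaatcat
Vps13b, chr15:35518582-35518633, plus strand: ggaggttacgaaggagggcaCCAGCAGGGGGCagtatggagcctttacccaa
The 3 furthest above held these:
Npas3, chr12:53707138-53707189, minus strand: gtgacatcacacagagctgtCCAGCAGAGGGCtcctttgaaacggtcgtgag
Uchl1os, chr5:66641911-66641962, minus strand: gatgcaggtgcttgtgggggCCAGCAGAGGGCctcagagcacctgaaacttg
no gene within 50 kb, chr9:71368703-71368754, minus strand: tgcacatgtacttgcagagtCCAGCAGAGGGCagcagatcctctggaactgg
All 3 of the higher peaks had the core CCAGCAGAGGGC, which was also the most frequent form among all peaks with 1 core (1320 of 7913). The lower peaks held 3 different forms.

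Most autosomal peaks were close in the 2 mutants. The median difference was 0.04, the middle 50% of peaks lay between -0.20 and 0.29, and 97.7% were within 2-fold. The columns had a Pearson's r of 0.949, taken over peaks, which are no replicates. A 2-fold higher value in the point mutant was found at 2683 peaks (1.24% of those compared) and a 2-fold lower one at 2223 (1.02%), and 92.9% of these 4906 peaks lay below the median level. At or above the median level (108565 peaks, median difference 0.02) 91 peaks stood 2-fold higher (0.0838%) and 255 stood 2-fold lower (0.235%). Higher peaks thus made up 54.7% of all those past 2-fold but 26.3% of those at or above the median level. The first share was 37.0% after quantile normalization and 28.2% after centring on mean level, and the second became 52.7% at a threshold of 1.5-fold (3268 higher and 2928 lower). At that level the SD of the differences was 0.31 and the median counting error 0.16.

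**Figure D1:**
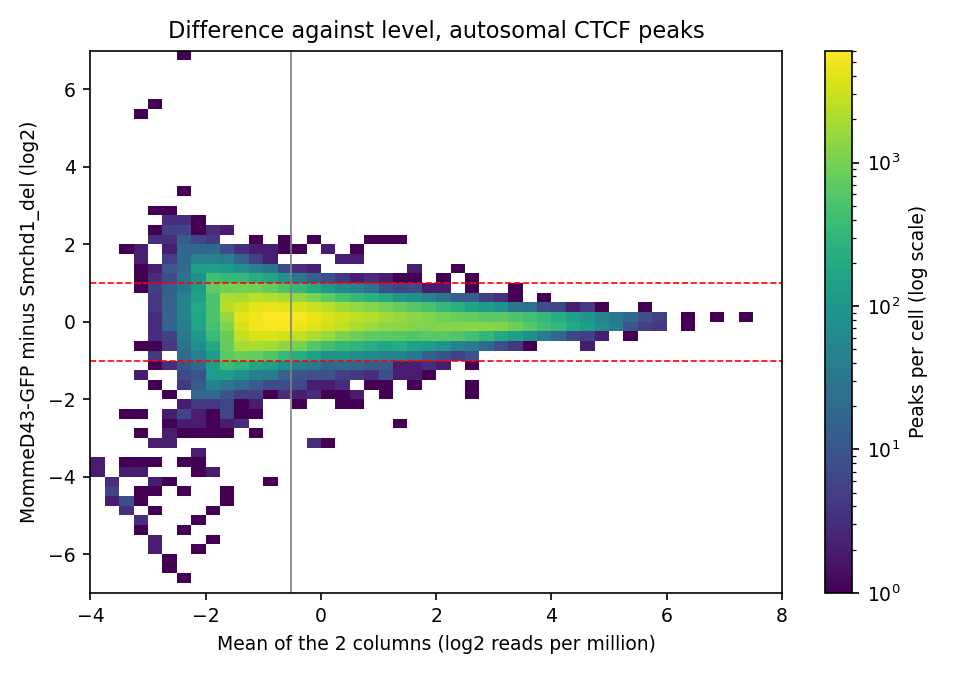
Difference between the mutants (MommeD43-GFP minus Smchd1_del, log2) against the mean of the 2 columns (log2 RPM) for autosomal peaks, coloured by the number of peaks in each cell on a log scale. Red dashes mark 2-fold and the grey line the median level; the spread narrows as the level rises, and 97.7% of peaks lie between the dashes.

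How densely reads filled a peak separated higher from lower peaks most clearly. Level per kb, the linear value divided by peak length, was cut into deciles of 21713 peaks. In the sparsest decile the median difference was 0.28 and 72.3% of peaks were higher in the point mutant. The median was lower in each further decile, passed 0 at the sixth (-0.01) and reached -0.09 in the densest, where 32.6% of peaks were higher. The number at least 2-fold higher was 1440 in the sparsest decile and 3 in the densest, against 511 and 34 at least 2-fold lower. Sparse peaks were thus mostly higher in the point mutant and dense peaks mostly lower. The list merges peaks called in each genotype, so a sparse peak may have entered it through the genotype where it was high. How far this shaped the order was not tested. The order was not one of length, since the median length was 750 bp in the sparsest decile, 450 bp in the eighth and ninth and 2250 bp in the densest.

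**Figure D2:**
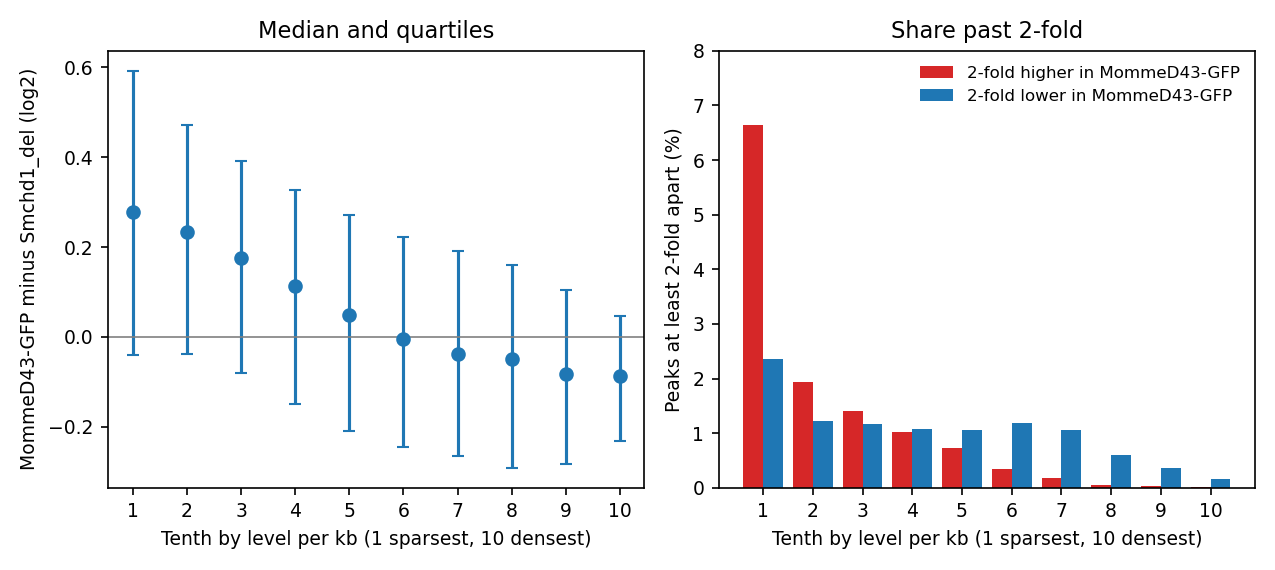
Left, median difference (point, log2) with quartiles (bars) in deciles of autosomal peaks ordered by level per kb; right, the percentage of each decile at least 2-fold higher (red) or lower (blue) in MommeD43-GFP. The medians run from 0.28 in the sparsest to -0.09 in the densest decile.

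Within each class of length or GC content the sparsest peaks again had a higher median than the densest, though not every step between them went down. Among peaks over 750 and up to 1200 bp the median was 0.28 in the sparsest decile and -0.12 in the densest, and among peaks over 2400 and up to 5000 bp it was 0.25 and -0.09. Steps upwards were found in several classes. Peaks of up to 450 bp had -0.14 in the ninth decile and 0.00 in the densest, those over 450 and up to 750 bp had -0.11 in the seventh, -0.01 in the ninth and -0.10 in the densest, and those over 750 and up to 1200 bp had -0.05 in the seventh and -0.03 in the ninth. Between the outer quintiles of level per kb the median went from 0.23 to -0.14 in the tertile with the lowest GC content, from 0.26 to -0.10 in the middle tertile and from 0.27 to -0.04 in the highest. Over all autosomal peaks r between the difference and log2 level per kb was -0.23. The overall level, not divided by length, went with the difference far less (r = -0.08), with medians between 0.01 and 0.06 from the second to the ninth decile, 0.24 in the lowest and -0.05 in the highest.

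Length alone moved the median little. It was 0.01 in peaks of up to 450 bp, 0.06 up to 750 bp, 0.07 up to 1200 bp, 0.04 up to 2400 bp and 0.00 in both longer classes, and r between the difference and length was 0.01. The spread depended on length much more. Of the 58233 shortest peaks 2.71% were at least 2-fold higher and 2.39% lower, whereas of the 5170 peaks over 5000 bp 1 was higher and none lower.

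Peaks over the core CTCF motif were lower in the point mutant than peaks without it. A core lay in 8324 autosomal peaks (3.83%), whose median difference was -0.09 with 33.3% higher, against 0.04 with 54.9% higher in the 208806 others. Past 2-fold, and with at least the median level, a core was present in 38 of the 255 lower peaks (14.9%) and in 3 of the 91 higher peaks (3.30%), compared with 7.43% of all peaks at that level. The median was lower with a core than without in every decile of level. In the ninth it was -0.10 with a core and 0.05 without, and in the highest decile -0.09 and -0.04. Core peaks are also dense. Within the fifth to ninth deciles by level per kb, the medians with and without a core were at most 0.02 apart, and in the densest decile they were -0.10 and -0.08.

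The 16 exact forms of the core did not share a single median. Among the 7913 peaks with 1 core, CCACTAGATGGC had the lowest, -0.21, with 10.95% of its 420 peaks higher in the point mutant. CCACTAGAGGGC (543 peaks) and CCACTAGGTGGC (510 peaks) both had -0.15. At the other end stood CCAGTAGAGGGC, at 0.01 with 50.8% of 563 peaks higher, and CCAGCAGAGGGC, at -0.04. The 8 forms that begin with CCAC had medians between -0.21 and -0.07 and the 8 that begin with CCAG between -0.14 and 0.01, a grouping made after the values were seen. Within the highest decile of level the ends of the order were the same, with -0.17 for CCACTAGATGGC (275 peaks, 8.73% higher) and -0.02 for CCAGTAGAGGGC (256 peaks, 43.8% higher). Median GC content of the peaks lay between 45.4% and 48.7% for all 16 forms. Motifs on the plus and the minus strand had medians of -0.08 and -0.10.

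The forms also differed in how often they lie in repeats, which the reference sequence marks without naming the family. In rodents B2 SINE elements are known to have spread CTCF sites. Of CCAGCAGAGGGC cores 48.7% lay in a repeat and of CCAGTAGAGGGC 43.0%, but of CCACTAGATGGC 0.476%. The 1099 peaks whose core lay in a repeat had a median of 0.01 with 51.2% higher, and the 6814 whose core lay outside had -0.10 with 30.3% higher. The same order was found within deciles of mean level, with 0.10 and -0.16 in the ninth and -0.03 and -0.10 in the highest. Neither this split nor the forms of the core were compared at equal level per kb. CCAGCAGAGGGC (643 peaks) and CCAGTAGAGGGC (242 peaks) supplied most of the cores in repeats, with medians of 0.03 and 0.10 there and of -0.08 and -0.07 outside. The order did not hold for every form. CCACTAGAGGGC had -0.16 in repeats (72 peaks) and -0.15 outside, and CCAGTAGATGGC had -0.30 (10 peaks) and -0.13.

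**Figure D3:**
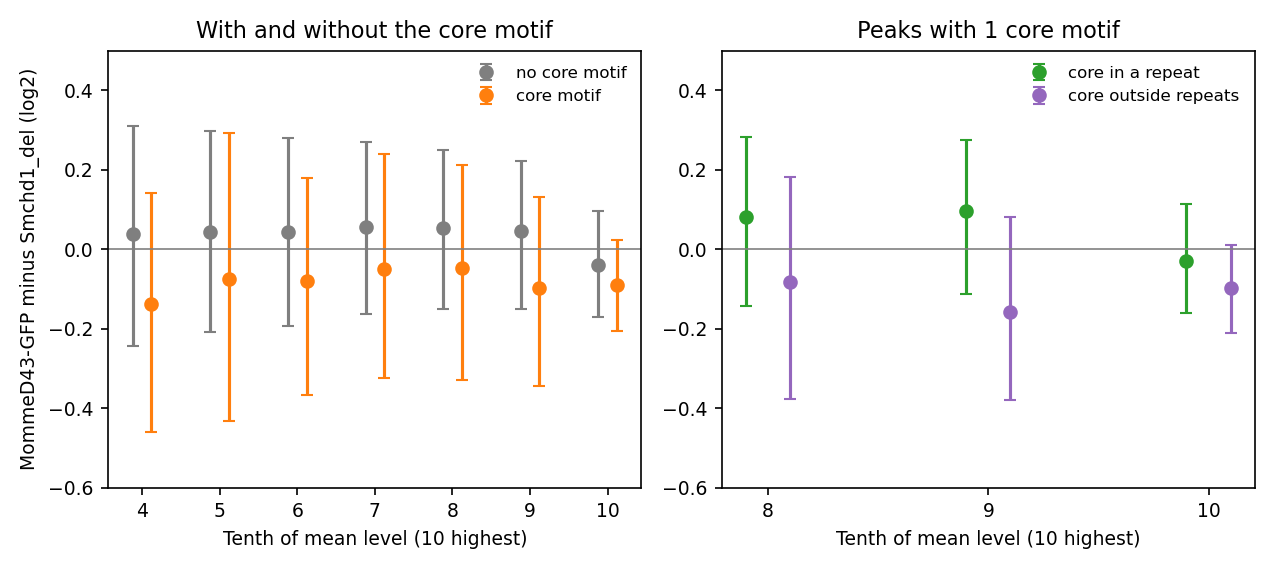
Left, median difference (log2, point) with quartiles (bars) for peaks with (orange) and without (grey) the core motif in deciles of mean level; right, peaks with 1 core motif, split by whether the core lies in a repeat (green) or outside (purple). In the ninth decile the medians are -0.10 with and 0.05 without a core, and 0.10 in a repeat and -0.16 outside.

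Among single motif peaks, the furthest below was at the promoter of the predicted gene Gm45844 (chr7:7277401-7278900), at 1.71 in the point mutant and 3.66 in the null, a difference of -1.96 ± 0.08 and also the lowest in the highest decile of level. An intron of Cntnap2, a neurexin-family adhesion gene of neurons, was at -0.74 and 0.95 (-1.69 ± 0.19). Introns of Vps13b, a lipid transfer gene, and Satb1, a chromatin organiser, were lower by 1.54 ± 0.14 and 1.34 ± 0.17. Higher motif peaks differed less. An intron of Npas3, a transcription factor of neural progenitors, was at 0.17 in the point mutant and -0.94 in the null (1.11 ± 0.23), and an intron of Uchl1os at 0.57 and -0.50 (1.07 ± 0.20). The smallest of the 10 lowest differences was larger in size than the largest of the 10 highest.

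**Figure D4:**
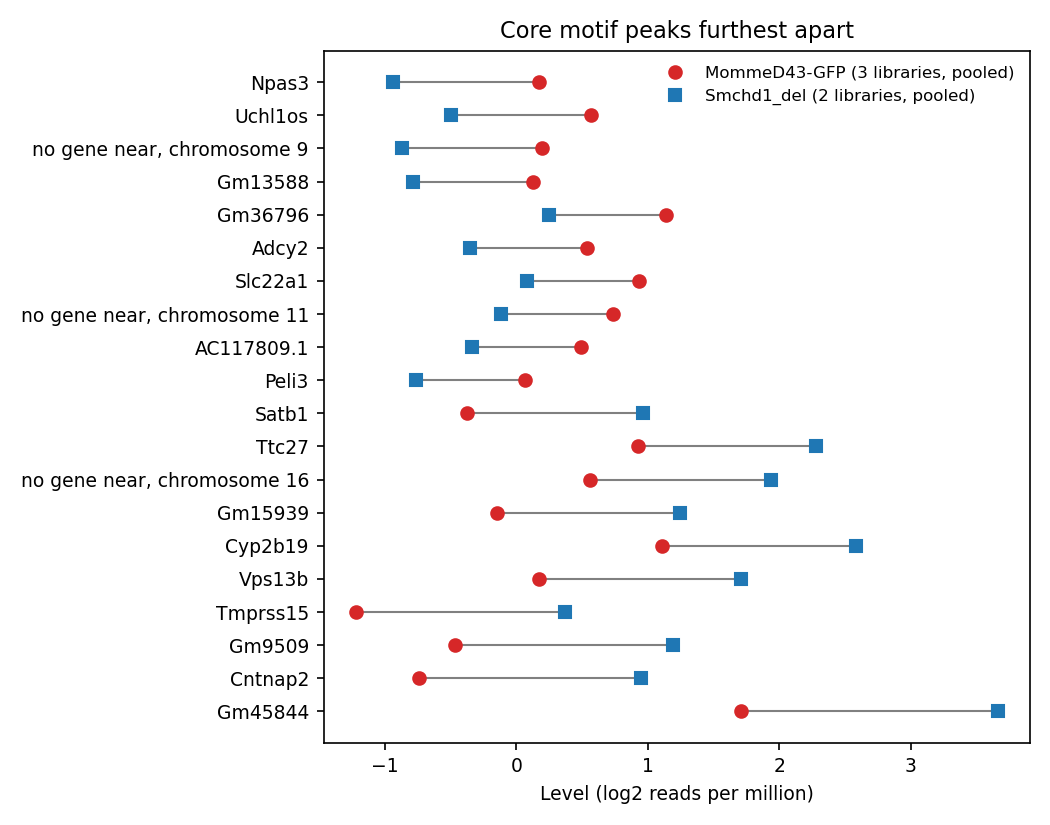
Level (log2 RPM) in MommeD43-GFP (red circles, pooled over 3 libraries) and Smchd1_del (blue squares, pooled over 2) at the 10 core motif peaks with the highest and the 10 with the lowest difference, at or above the median level. The gaps of the lower peaks run from -1.34 at Satb1 to -1.96 at Gm45844 and those of the higher from 0.83 at Peli3 to 1.11 at Npas3.

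Base composition went with the direction of large differences. Of the 255 lower peaks with at least the median level, 122 (47.8%) fell in the decile with the lowest GC content, which held 9.63% of all peaks at that level and 10 of the 91 higher ones. The median GC content was 43.4% in the lower peaks, 47.9% in the higher and 48.2% in all. Over all autosomal peaks the median difference was -0.04 in the decile with the lowest GC content and 0.06 in the eighth and ninth. CpG-rich sequence departed from this order. The 3769 peaks whose observed over expected CpG ratio was over 0.6 (median GC 54.7%) had a median of -0.09, with 36.9% higher. By repeat content the median went from 0.01 in peaks with none to 0.10 in peaks over 75% repeat.

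Genomic position had a small effect on the median and a larger one on the extremes. The median difference was 0.01 in promoters, 0.04 in UTRs, other exons and introns, and 0.05 in intergenic sequence, and it reached 0.07 over 200 kb from a start site. Promoters held 14 of the 91 higher peaks (15.4%) and 42 of the 255 lower ones (16.5%) at or above the median level, against 18.4% of all peaks there. Intergenic sequence held 38.5% of the higher and 49.0% of the lower, against 34.0%. By chromosome the median ran from 0.00 on chromosome 15 to 0.05 on chromosome 9, and along the length of the chromosomes from 0.03 to 0.05. The share of peaks at or above the median level past 2-fold was 0.928% on chromosome 12, 0.568% on 13, 0.551% on 15 and 0.50% on 7. It was lowest on chromosome 2, at 0.109%. Over all autosomal peaks at that level 0.0838% were 2-fold higher and 0.235% 2-fold lower.

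At promoters, the highest difference at or above the median level was at Depdc1b, a cell cycle gene with a DEP domain (chr13:108315601-108317100), with 2.17 in the point mutant and 0.12 in the null (2.05 ± 0.15). The other peaks of Depdc1b differed by -0.25 to 0.51, so only the promoter stood apart. The lowest was at Asap2, a GTPase-activating gene for Arf proteins (chr12:20989501-20990550), with -1.42 and 1.66 (-3.08 ± 0.21), while its other peaks differed by -1.44 to 0.78. The Asap2 promoter peak lies between 17 and 28 Mb on chromosome 12. In that stretch 14.7% of peaks were at least 2-fold apart, against 2.26% of all autosomal peaks. Whether its sequence is present in every line was not tested. The 250 bases before each gene's start, in GRCm38 sequence and GENCODE M21 annotation, are shown to let these promoters be compared:
Depdc1b, chr13:108316118-108316367, plus strand: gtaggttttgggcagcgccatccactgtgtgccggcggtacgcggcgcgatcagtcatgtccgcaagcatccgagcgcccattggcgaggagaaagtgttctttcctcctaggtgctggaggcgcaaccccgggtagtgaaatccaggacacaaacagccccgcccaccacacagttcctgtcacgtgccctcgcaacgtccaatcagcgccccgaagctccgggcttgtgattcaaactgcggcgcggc
Asap2, chr12:20990209-20990458, plus strand: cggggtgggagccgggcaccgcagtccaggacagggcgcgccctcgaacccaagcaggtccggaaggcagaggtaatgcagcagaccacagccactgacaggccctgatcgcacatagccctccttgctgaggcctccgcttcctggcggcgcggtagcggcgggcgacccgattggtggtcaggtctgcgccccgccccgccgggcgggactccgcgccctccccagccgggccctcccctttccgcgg
Both lay wholly within their peaks, with GC contents of 62.4% and 73.2%. Neither held the core motif nor the relaxed form CCNNNAGNNGGC, which includes it, on either strand. Among the 32851 RefSeq promoter sequences of the same 250 bases, 0.508% held the core and 7.17% the relaxed form.

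At or above the median level 14 promoter peaks were higher and 42 lower, whereas over all levels 187 were higher and 183 lower. The genes named next are examples picked from the former after the values were seen, and no group of them was tested. A promoter peak of Pdgfra, the PDGF receptor of oligodendrocyte precursors, was at 2.297 in the point mutant and 1.02 in the null (1.28 ± 0.11), while its tallest promoter peak was at 4.24 and 4.28. Lmo4, a LIM-only cofactor, was at 0.43 and -0.77 (1.19 ± 0.21). Creb3l1, a transcription factor of the secretory pathway, was at 1.73 and 0.54 (1.19 ± 0.14). Among the lower promoters Kank1, an adaptor of the cortical cytoskeleton, was at -1.51 and 0.73 (-2.24 ± 0.23). Others were Ncam2, an adhesion molecule (-1.51 ± 0.21), Gabrb2, a GABA receptor subunit (-1.11 ± 0.20), and Ntf3, the growth factor neurotrophin-3 (-1.09 ± 0.14). Further examples were Setd5 (-1.54 ± 0.22), the histone reader Phf21a (-1.40 ± 0.21), the histone gene Hist1h4c (-1.21 ± 0.15) and the remodeller Smarca2 (-1.09 ± 0.12). Cd209c, a lectin receptor (-1.62 ± 0.11), the antiviral Trim30a (-1.42 ± 0.18) and Trim12a (-1.38 ± 0.15), and Lair1, an inhibitory receptor (-1.07 ± 0.09), were lower too.

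Neighbouring peaks were nearly unrelated (r = 0.06 between adjacent peaks), but some places held several large differences. Of windows of 1 Mb, 7 held 4 or more peaks past 2-fold at or above the median level. They held 38 of the 346 such peaks, a number that the choice of windows fixes in part. The densest, at 20 to 21 Mb on chromosome 12, held 6 peaks of the gene Gm49692 that were higher and 5 lower peaks at Gm49698, 3110053B16Rik and Asap2, so both directions lay side by side. All 11 peaks of Gm49692 were higher, from 0.20 to 1.95 with a median of 1.33. Its strongest peak was at 3.11 in the point mutant and 1.78 in the null (1.33 ± 0.09).

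Runs of at least 5 consecutive peaks beyond 0.5 in the same direction numbered 19 higher and 16 lower, and the longest of each had 11 peaks. The longest higher run spanned 104.1 kb at chr13:100273801-100377900 with a median of 1.29, over Naip6 and Naip3, a tandem family of innate immune receptors for bacterial proteins. At the 3′ UTR end of Naip6 the levels were 2.32 and 0.84 (1.49 ± 0.12). Most of the other higher runs lay outside receptor families. Some lay near tandem receptor families, mostly between the genes, with 9 peaks around Vmn2r49 and Vmn2r50 (median 1.82), 6 around Vmn2r42 and Vmn2r44 (1.29) and 5 around bitter taste receptors of the Tas2r family (0.80). Lower runs included 7 peaks over Hpcal1, a neuronal calcium sensor (-1.08), 6 over the immunoglobulin heavy chain segments Ighv5-2 to Ighv5-6 (-0.73), 5 at Cyp2b19 (-0.88) and 5 over Myof and Cep55 (-0.88). A lower run of 5 peaks also lay around the receptor genes Vmn2r76, Olfr310 and Olfr309 (-0.64). Near-identical gene copies share reads, so values in and near Naip, Vmn2r, Tas2r and Ighv genes are uncertain.

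Windows as a whole lay close together. Among 2383 windows with at least 20 peaks the medians ran from -0.32 to 0.32, with 90% of them between -0.09 and 0.16. The lowest, at 7 to 8 Mb on chromosome 7, held Zfp773 and Zfp954 (7 of 26 peaks higher). At 25 to 26 Mb on chromosome 1, where 35 of 44 peaks belong to the synaptic receptor gene Adgrb3, the median was -0.26. The highest was at 47 to 48 Mb on chromosome 1 around Gm19206 (26 of 39 higher), and a window at the start of chromosome 9 over Gucy1a2 and Alkbh8 had 0.29 (49 of 61 higher).

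The most extreme differences were mostly low values in the point mutant and lay in a few stretches, which were chosen after their values were seen. Of 81 peaks at least 8-fold apart, 77 were lower and 4 higher, and only 4 were at or above the median level. Chromosome 12, with 10918 of the 217130 autosomal peaks, held 43 of them, all between 17 and 28 Mb. Chromosome 15, with 8947 autosomal peaks, held 12, all between 30 and 50 Mb. In the stretch of chromosome 12 the median over 1061 peaks was -0.01, yet 41 were at least 2-fold higher and 115 lower (14.7% together, against 2.26% of all autosomal peaks). At 30 peaks no read was found in any MommeD43-GFP library, whereas the null held 5.48 to 93.9 reads per library. Against a floor of 3 reads over the libraries these were at least 5.48-fold to 93.9-fold lower. The lowest 0.1% of autosomal peaks held up to 7.11 reads per library in the point mutant. The longest lower run, 11 peaks over 228.3 kb at chr12:18388051-18616350 with a median of -4.55, crossed the predicted genes Gm40848 and Gm48398. Chromosome 17, with 8848 autosomal peaks, held 4 of the 81, all lower, in or near L3mbtl4, AC154721.1, Birc6 and Gm16391.

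Peaks with no read in the null were found at 1 place only. The 3 peaks with no read in the null were consecutive, in an intron of Wwox, the oxidoreductase gene of a common fragile site (chr8:115136251-115144350). They held 95.6, 34.9 and 47.1 reads per library in the point mutant. The next Wwox peaks on either side did not share this, at 414 and 443 reads before and 53.7 and 47.9 after in the point mutant and the null. The other peak at least 8-fold higher, near Gm1553 on chromosome 10, held 28.4 reads per library in the point mutant and 2.83 in the null. Whether these sequences are present in every line was not tested, since no input value is in the table.

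Whole genes differed less than single peaks. Among 3195 genes with at least 10 peaks the median of the gene medians was 0.03, with 90% between -0.18 and 0.22. The lowest were Ttc37, a subunit of the RNA-degrading SKI complex (-0.61, 1 of 10 peaks higher), and Slc4a7, a sodium bicarbonate transporter (-0.53, none of 10 higher, from -0.77 to -0.26). Cps1, a urea cycle enzyme, followed at -0.45 (4 of 10 higher, from -1.08 to 0.91). The adherens junction gene Ctnnd1, which encodes p120-catenin, was at -0.44 (3 of 10 higher). Smurf2, a ubiquitin ligase for TGF-beta signalling, was at -0.40 (3 of 12). Above all others was Gm49692. After it came Cdk8, a kinase of the Mediator complex (0.46, 9 of 11 higher), Ambra1, an autophagy regulator of the developing nervous system (0.45, 10 of 11), and Aldh1l2, a mitochondrial folate enzyme (0.44, 9 of 10). None of these besides Gm49692 had more than 1 peak past 2-fold.

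The 47 gene and region lists were spread on both sides of the median of all peaks. Homeobox genes, which pattern the body axis, had medians below it. The 30 peaks of the Irx genes had a median of -0.21 with 36.7% higher, beside -0.23 for Hoxb, -0.33 for Hoxd and -0.05 for both Hoxa and Hoxc. At Irx1 the promoter was at 0.84 in the point mutant and 1.73 in the null (-0.90 ± 0.12). In Hoxa the peak near Hoxa13 was at -0.23 and 0.64 (-0.87 ± 0.17) and the tallest peak of the cluster, at a promoter of Gm28308, at 3.20 and 3.58 (-0.38 ± 0.06). The Dlx genes, homeobox genes of the forebrain, had a median of -0.09 (13 peaks). No peak of these lists was 2-fold apart. Low medians were not limited to homeobox genes. Among the protocadherin clusters, which encode adhesion proteins of neurons, Pcdhb stood at -0.33 over 37 peaks, Pcdha at -0.11 over 29 and Pcdhg at 0.19 over 34. In Pcdhb 2 peaks were at least 2-fold lower (5.41%, against 1.02% of all autosomal peaks).

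**Figure D5:**
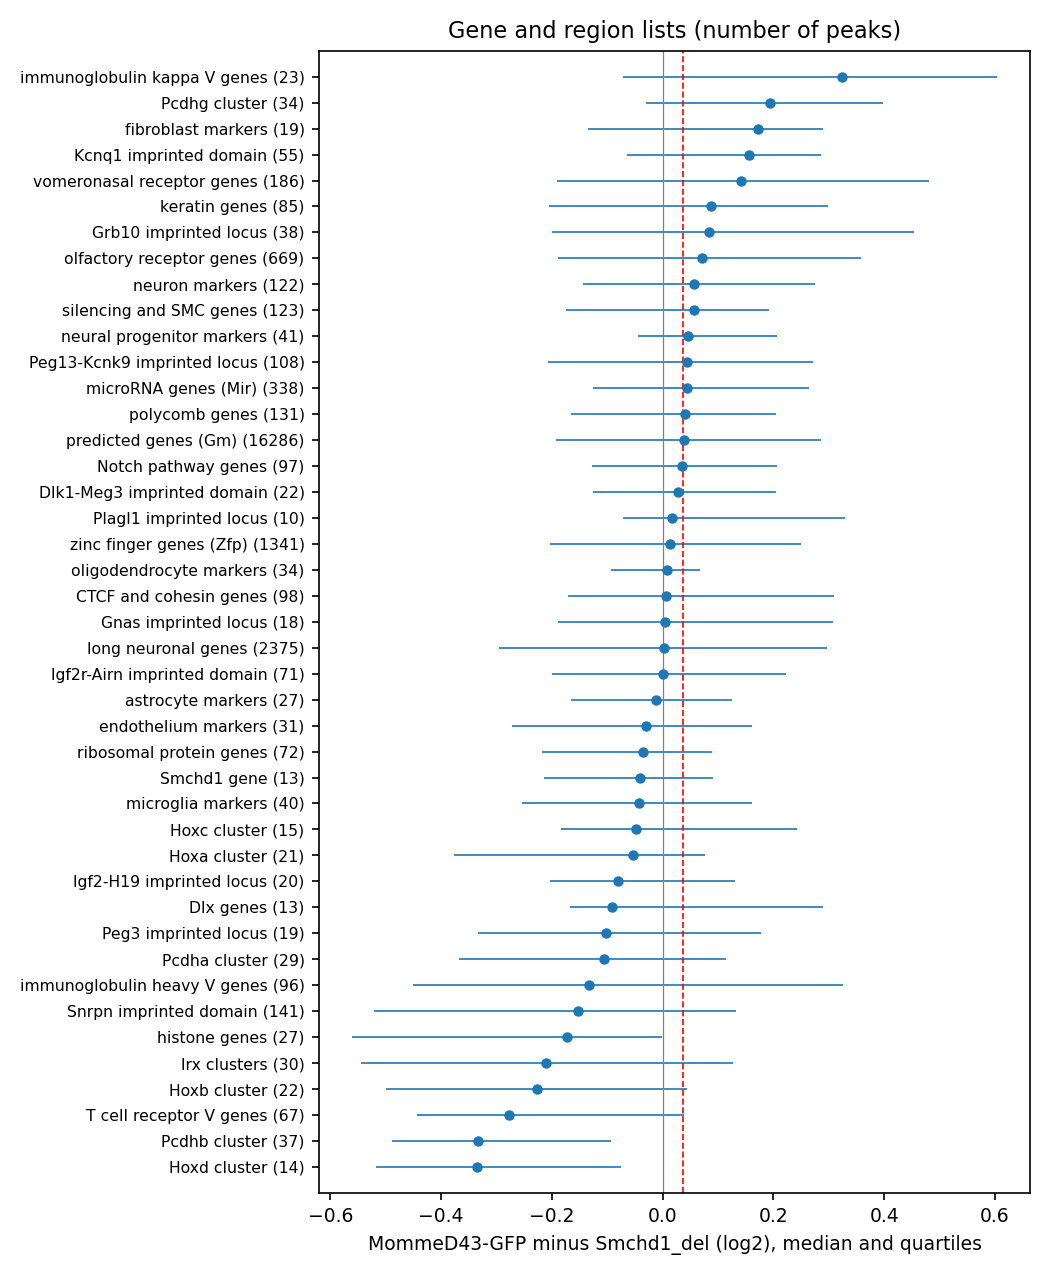
Median difference (log2, point) with quartiles (bars) over the peaks of each gene or region list with at least 10 peaks, ordered by median, with the number of peaks in brackets. The red dashes mark the median of all autosomal peaks, 0.04; Hoxd (-0.33) and Pcdhb (-0.33) stand lowest and the immunoglobulin kappa V genes (0.32) highest.

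Antigen receptor loci, silent in neural cells and named after their values were seen, were low where levels were high. The 32 peaks of heavy chain V genes at or above the median level had a median of -0.54 with 6.25% higher, and the 40 peaks of T cell receptor V genes -0.34 with 12.5% higher, against 0.02 for all peaks at that level. At Ighv2-2, which holds a core motif, the values were 0.22 in the point mutant and 1.31 in the null (-1.08 ± 0.14). Over all 96 heavy chain peaks the median was -0.13, and the kappa V genes, with 2 of 23 peaks at or above it, stood at 0.32. Histone genes had a median of -0.17 over 27 peaks with 25.9% higher. The 8 beta globin peaks had a median of -0.37 and a median length of 600 bp, and 3 were at least 2-fold lower (1.02% of all autosomal peaks were), with the lowest at -2.08 and -0.46 near Olfr66 (-1.62 ± 0.30), whereas the 9 alpha globin peaks had a median of 0.12 and ran from -0.20 to 0.31.

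Among imprinted loci several medians stood near that of all peaks, with 0.00 at Igf2r-Airn and Gnas, 0.03 at Dlk1-Meg3 and -0.08 at Igf2-H19. Others stood further from it. The Snrpn domain was at -0.15 over 141 peaks with 36.2% higher, and Peg3 at -0.10 over 19. Kcnq1 was at 0.16 over 55 peaks with 65.5% higher, and Peg10-Sgce at 0.47 over 7. Single peaks stood further apart, in both directions. The widest were in the Snrpn domain, at -3.07 in the point mutant and -0.39 in the null (-2.68 ± 0.38) near Gm32061, which holds a core motif, and at -1.49 and -3.12 (1.63 ± 0.47) near Snhg14. In the Igf2r-Airn domain an Airn intron was higher by 1.23 ± 0.36 and a Slc22a3 intron lower by 1.10 ± 0.23. An intron peak of Trappc9, in the Peg13 locus, was higher by 1.05 ± 0.25. Grb10, a growth inhibitor, had an intron peak at -1.05 and -2.15 (1.10 ± 0.35) and a taller one at 1.49 and 2.34 (-0.84 ± 0.10). At Peg3, which encodes a zinc finger protein, 2 UTR peaks stood on opposite sides of 0, at 1.17 and 0.69 (0.49 ± 0.14) and at -0.95 and 0.01 (-0.96 ± 0.22).

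The markers of neural progenitors, the cells under study, had a median of 0.05 over 41 peaks in 10 genes, and 61.0% were higher. Of these, 1 peak was at least 2-fold higher (2.44%, against 1.24% of all autosomal peaks). It lay near Sox2, the defining transcription factor of the lineage, in an intron of its host transcript Sox2ot, at 2.22 in the point mutant and 1.06 in the null (1.16 ± 0.11). The tallest peak at Pax6, the patterning factor of the dorsal forebrain, was at 1.57 and 0.68 (0.89 ± 0.13), while the Pax6 promoter was at 0.59 and 1.01 (-0.42 ± 0.14). All 6 peaks at Hes1 and all 5 at Notch1, a Notch target and receptor, were higher, by at most 0.38 and 0.37. The Vim promoter, of the progenitor intermediate filament, was at 2.32 and 2.72 (-0.40 ± 0.08). Slc1a3, a glutamate transporter of radial glia, had 1 of 6 peaks higher and its tallest at 3.99 and 4.22 (-0.23 ± 0.04). Nes, Fabp7, Hes5 and Emx2 differed by 0.10 or less at their tallest peaks. Lists of other cell types were close to 0, with medians of 0.06 for neurons, -0.01 for astrocytes, 0.01 for oligodendrocytes, -0.04 for microglia and -0.03 for endothelium, and 0.17 over the 19 peaks of fibroblast genes.

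Genes that act with CTCF or SMCHD1 gave medians near that of all peaks. The 98 peaks of CTCF and cohesin genes had 0.01, with 4 at least 2-fold higher and 1 lower. Over all autosomal peaks 1.24% were at least 2-fold higher and 1.02% lower. At Ctcf itself the promoter was at 2.86 in the point mutant and 2.73 in the null (0.13 ± 0.07). Nipbl, the cohesin loader, held the widest pair, with a peak at -0.92 and -2.45 (1.52 ± 0.37) and another at -1.97 and -0.79 (-1.18 ± 0.30) in its introns. All 3 peaks at Esco2, a cohesin acetyltransferase, were higher, by up to 1.12 ± 0.27. Smc3, a cohesin ring subunit, had 1 of 6 peaks higher and its tallest was lower by 0.28 ± 0.06. The 131 polycomb peaks had a median of 0.04 with 1 past 2-fold each way. At the tallest peak of Mtf2, a PRC2 accessory subunit, the values were 0.34 and 1.02 (-0.68 ± 0.15), though 4 of its 5 peaks were higher. The tallest peaks of Pcgf3 and Pcgf5, subunits of a variant PRC1, were both lower by 0.33. Of all their peaks, 7 of 13 and 10 of 15 were higher. All 3 peaks of Pcgf2, a subunit of PRC1, were higher, with the tallest at 4.63 and 4.56 (0.07 ± 0.04). Silencing and SMC genes had 0.06 over 123 peaks. The DNA methyltransferase genes Dnmt3a and Dnmt3b had 11 of 13 and 11 of 16 peaks higher, and Uhrf1, which guides maintenance methylation, 5 of 5. Others were lower, with the promoter of the condensin gene Smc4 at 0.83 and 1.28 (-0.45 ± 0.13) and that of the corepressor Trim28 at 4.77 and 5.01 (-0.24 ± 0.03). In the Notch pathway, which keeps progenitors undifferentiated, the median was 0.04 over 97 peaks. Hey1, a Notch target, had both peaks lower (-0.61 and -0.19), and Dll1, a ligand, had 2 of 7 higher, whereas the ligand genes Dll3 and Jag2 had all 4 and all 3 higher.

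Smchd1 itself, the gene altered in both lines, held 13 peaks in and beside it with a median of -0.04. They ran from -0.51 to 0.54, and 6 of 13 were higher. The tallest, in an intron (chr17:71444251-71445900), was at 1.04 in the point mutant and 1.18 in the null (-0.14 ± 0.13), and the peak at chr17:71422201-71422950 was lowest, at -0.71 and -0.20 (-0.51 ± 0.22). No Smchd1 peak held a core motif or was 2-fold apart, and each held reads in both mutants.

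Long neuronal genes had a median of 0.00 over 2375 peaks, with 40 at least 2-fold higher and 40 lower. Olfactory receptor genes had 0.07 over 669 peaks, with 16 higher (2.39%) and 6 lower (0.897%), and vomeronasal receptor genes 0.14 over 186, with 6 (3.23%) and 2 (1.08%). Over all autosomal peaks the shares were 1.24% and 1.02%, and in the shortest length class 2.71% and 2.39%, and both lists had a median length of 600 bp. These lists take peaks in a gene or within 1 kb of its start, so they leave out most peaks of the runs between Vmn2r genes. Zinc finger genes (Zfp) had 0.01 over 1341 peaks, keratin genes 0.09 over 85, ribosomal protein genes -0.04 over 72, predicted Gm genes 0.04 over 16286 and microRNA genes 0.04 over 338. At or above the median level no peak of either receptor family was past 2-fold, and the medians were 0.02 and -0.04.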

How the data were processed

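CTCF ChIP-seq was done in primary female NSC lines, and the libraries of each genotype were pooled into 1 column. Per the labels and methods, the authors trimmed reads with Trim Galore 0.4.4 and cutadapt 2.9, aligned them to GRCm38.p5 with Bowtie2 2.3.4.1, called peaks in SeqMonk over each replicate set and merged overlapping peaks. The deposited values are log2 RPM, averaged by the authors over libraries and not corrected for length. Here the columns MommeD43-GFP and Smchd1_del were subtracted at each autosomal peak. With 1 pooled value per genotype no test was possible, so a peak past 2-fold is a description.

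Reads per library were recovered from the steps between low values and gave the counting errors, which cover counting only. A library with no read in a peak stands in the deposited values at 0.9 reads, and folds there were set against a floor of 3 reads. Promoters were peaks within 1000 bp of a gene start in GENCODE M21. Single genes on the lists took peaks in the gene or within 10 kb, and clusters within 20 kb. Gene families defined by name and the genes with at least 10 peaks took peaks in a gene or within 1000 bp of its start. A single peak was named after the gene it lies in, or else after the nearest start within 50 kb. Motifs, GC content and repeats came from the GRCm38.p6 sequence, whose chromosome lengths were checked against the peaks. Promoter sequences for the motif shares came from RefSeq. Named were the 10 highest and 10 lowest differences at or above the median level and among core motif peaks there, the 5 highest and 5 lowest of the highest decile of level and of 1 Mb windows, the 10 highest and lowest medians of genes with at least 10 peaks, genes with 3 or more peaks past 2-fold, the extremes of each list and all Smchd1 peaks. Promoters past 2-fold, runs, windows with 4 or more such peaks, peaks 8-fold apart and the tallest peaks of listed genes were named after their values were seen. The members and lists were chosen with earlier results of these data known. The computations, run with pandas 2.3.3, pysam 0.24.0, scipy 1.17.1 and numpy 2.4.6 under Python 3.11.15, were tested on simulated data. Scaling, pseudocount, level, length, fold and flank were varied.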

Additional observations from a re-analysis of the deposited data

How the results depend on the processing

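No paired analysis was possible because each genotype is given as 1 pooled column, and for the same reason no replicate could be left out. The counts of peaks past the threshold moved most with the pseudocount and with the fold taken as threshold. Each setting is given as higher, lower, and higher and lower at the median level or above, which as reported were 2683, 2223, 91 and 255. A pseudocount of 1 gave 10, 33, 9 and 21, and a pseudocount of 0.1 gave 684, 841, 44 and 166. A fold of 1.5 gave 17069, 12857, 3268 and 2928, and a fold of 4 gave 66, 141, 4 and 8. Centring on mean level in 50 bins gave 1396 and 3563 over all peaks. Keeping peaks at or above the lower quartile of level gave 462 and 589, and keeping those of 600 bp or more gave 1102 and 830. Splitting by level per kb gave 140 and 730 in the upper part. Higher peaks as a share of those past 2-fold were 54.7% over all peaks and 26.3% with at least the median level. The first share became 37.0% after quantile normalization, 28.2% after centring on level, 23.3% with a pseudocount of 1, 31.9% at 4-fold and 44.0% above the lower quartile. The second became 52.7% at 1.5-fold and 16.1% when split by level per kb. The median difference of 0.036 became -0.00077 after column centring, 0.0131 after quantile normalization, 0 after centring on level or on GC, 0.0163 with a pseudocount of 1, 0.0321 with 0.1, 0.0245 above the lower quartile, 0.0433 at 600 bp or more and 0.038 under 5000 bp. List medians that turned sign were those of the kappa V genes, to -0.0241 above the lower quartile and at 600 bp or more, of Peg3, to 0.062 with a flank of 0 kb, and of alpha globin, to -0.107 with that flank. Of 916 medians of peak classes, lists, windows and genes under other settings, these included, 881 moved by less than 0.1. A further 31 moved by 0.1 or more and 4 turned sign. A turn of sign was counted only where the reported median was at least 0.1 in size. The cause of these shifts was not tested.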
